A study of Mus musculus with 20 samples.

Results

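The genes described here encode β-catenin, the core of the complex that marks it for destruction, and proteins that bind it in the nucleus. They are Ctnnb1, Apc, Axin1, Gsk3b, Csnk1a1, Btrc, Tcf7l1, Tcf7l2, Bcl9 and Ctnnbip1. They were chosen by name, but with earlier results of these data known. All 10 were found among the 32991 genes with a value. RNA-seq had been run on colon tissue of 20 male C57BL/6 mice, with 5 mice in each of 4 groups and 1 library per mouse. Control mice received double distilled water by gavage for 91 days and no inducing agent. PZH mice received Pien Tze Huang, a formula of traditional Chinese medicine shortened to PZH, at 250 mg/kg per day over the same 91 days and no inducing agent. AOM/DSS mice, labelled Model, received a single intraperitoneal injection of azoxymethane (AOM) at 12.5 mg/kg, then cycles of 2% dextran sodium sulfate (DSS) in drinking water, with water by gavage. PZH + AOM/DSS mice, labelled Model + PZH, received the same AOM and DSS with PZH at 250 mg/kg per day. AOM is a carcinogen and DSS injures the colon lining, and together they model colitis-associated colorectal cancer. No mutation was engineered in any group, and the tumour part of each tissue piece is not given. The question was how AOM/DSS changed these genes, and whether their levels differed when PZH was given as well.

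In a resting cell, Axin1 and Apc form a scaffold that holds β-catenin. Csnk1a1 (casein kinase 1α) and then Gsk3b (glycogen synthase kinase 3β) phosphorylate it, and Btrc (β-TrCP), a ubiquitin ligase subunit, recognises the phosphorylated form and sends it to the proteasome. A Wnt signal stops this, and β-catenin enters the nucleus, where it binds TCF/LEF factors such as Tcf7l1 and Tcf7l2 through which target genes are switched on. Bcl9 is a coactivator that joins this complex, and Ctnnbip1 (ICAT) blocks the binding of β-catenin to TCF factors. β-catenin also holds E-cadherin (Cdh1) at cell junctions. In the intestine the pathway keeps crypt stem cells dividing, and loss of Apc is a common early step of colorectal tumours. Much of this control acts on the β-catenin protein, which RNA levels do not show.

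The sequences below are shown because these stretches belong to the transcript with most of the Tcf7l1 signal and to the Ctnnb1 transcripts with the largest fitted differences. A gene value was the sum of the deposited transcript values (FPKM, fragments scaled by transcript length and by library size) that the annotation gives to that gene. In Ctnnb1 on chromosome 9, 2 annotated transcripts, Ctnnb1-209 and Ctnnb1-206, hold parts of intron 10 of the main protein-coding transcript Ctnnb1-201, at chr9:120955973-120957106. Ctnnb1-209 covers the first 475 bases of this 1134-base intron and Ctnnb1-206 the last 240 bases. In Tcf7l1 on chromosome 6, the 518-base noncoding transcript Tcf7l1-203 holds 239 bases of intron 10 of Tcf7l1-201. Each line gives 40 exon and 40 intron bases around the boundary from GENCODE M21 (GRCm38, the same build as mm10), with the intron in capitals.
Ctnnb1-209, chr9:120955933-120956012, plus strand: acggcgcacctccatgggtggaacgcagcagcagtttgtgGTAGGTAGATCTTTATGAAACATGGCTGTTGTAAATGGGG
Ctnnb1-206, chr9:120957067-120957146, plus strand: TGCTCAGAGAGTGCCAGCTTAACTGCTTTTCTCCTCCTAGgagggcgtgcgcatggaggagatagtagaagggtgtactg
Tcf7l1-203, chr6:72629992-72630071, minus strand: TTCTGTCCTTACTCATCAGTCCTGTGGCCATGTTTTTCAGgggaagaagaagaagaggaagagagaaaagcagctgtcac

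The depth of the libraries, estimated from the spacing of the lowest FPKM values, was 15.3 to 19.4 M (mega) fragments. Of 12 colon epithelial markers, 11 were above 0 in every mouse, Cdh1, Krt20 and Vil1 among them. Epcam was listed at 0 in 13 of 20 mice. Krt8, also among the 11, was uneven, with a median of 0.165 FPKM in the PZH group and 19.3 FPKM in Control. Its median was 375 FPKM for the Model label and 319 FPKM for the Model + PZH label. Both Epcam and Krt8 are part of the colon epithelial sum given below. The labels name colon as the tissue but also mention abdominal aorta in the extraction text. The summed FPKM of 8 smooth muscle markers was 2320 to 5347 in Control mice and 1089 to 2505 in PZH mice. It was 1031 to 1805 in the AOM/DSS group and 911 to 2386 in the PZH + AOM/DSS group. All 8 were significantly lower in AOM/DSS than in Control, against 7.23% of all genes. The sum of 12 colon epithelial markers overlapped between these groups, at 4850 to 8042 in Control and 3125 to 6402 in AOM/DSS. Of 11 tested members, 4 were significantly lower and none was higher. At an unadjusted limma P under 0.05, 5 were lower and 2, Krt18 and Muc2, were higher. The sum of 8 immune cell markers was 605 to 1218 in Control and 929 to 1330 in AOM/DSS. Of these, 3 members were significantly higher and none lower, against 16.4% and 7.23% of all genes. Control mice 17 and 50 stood apart, with 340 and 287 summed FPKM of 6 squamous epithelium markers against 0.824 to 1.64 in the other 3 Control mice. The same sum was 0.325 to 1.05 in the PZH group and 12.7 to 36.6 in the AOM/DSS group. With Control mice 17 and 50 left out, 3 of 3 tested squamous markers were significantly higher in AOM/DSS than in Control, and with them 0 of 4. Those mice were picked by these same markers, so the count without them is no independent evidence of a rise. PZH + AOM/DSS mouse 35 also stood apart from its group, at 55.7 FPKM of the Wnt target Axin2 against 10.1 to 16.3 in the other 4. Its squamous sum was 65.4 against 2.55 to 9.32, and its colon epithelial sum of 3997 was the lowest of its group. The main values for the 10 genes are also given without these mice. In bulk tissue, fewer cells of a type and less RNA per cell cannot be told apart. The part that cell composition plays in the results below was not tested.

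Ctnnb1 was by far the most abundant of the 10 genes per unit of transcript length. In Control mice its mean was 221 ± 12.6 FPKM (SD, n = 5), followed by Csnk1a1 at 65.0 ± 11.8 FPKM, and both were separated from the gene next below in every mouse. Below them stood Axin1 (15.8 ± 1.08 FPKM), Gsk3b (13.6 ± 2.28), Ctnnbip1 (10.4 ± 1.04), Tcf7l1 (8.47 ± 2.103), Bcl9 (6.19 ± 1.64), Tcf7l2 (3.18 ± 0.602), Btrc (3.02 ± 0.709) and Apc (2.49 ± 0.598). Each of these 8 overlapped the range of its neighbour in this order. The values rest on unequal numbers of fragments, with estimated medians over the 20 mice of 13753 for Ctnnb1, 4533 for Csnk1a1 and 1998 for Gsk3b. For Apc, Tcf7l1, Tcf7l2 and Btrc the medians were 118, 110, 122 and 171 fragments, so counting error weighs more on these 4 genes.

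**Figure D1:**
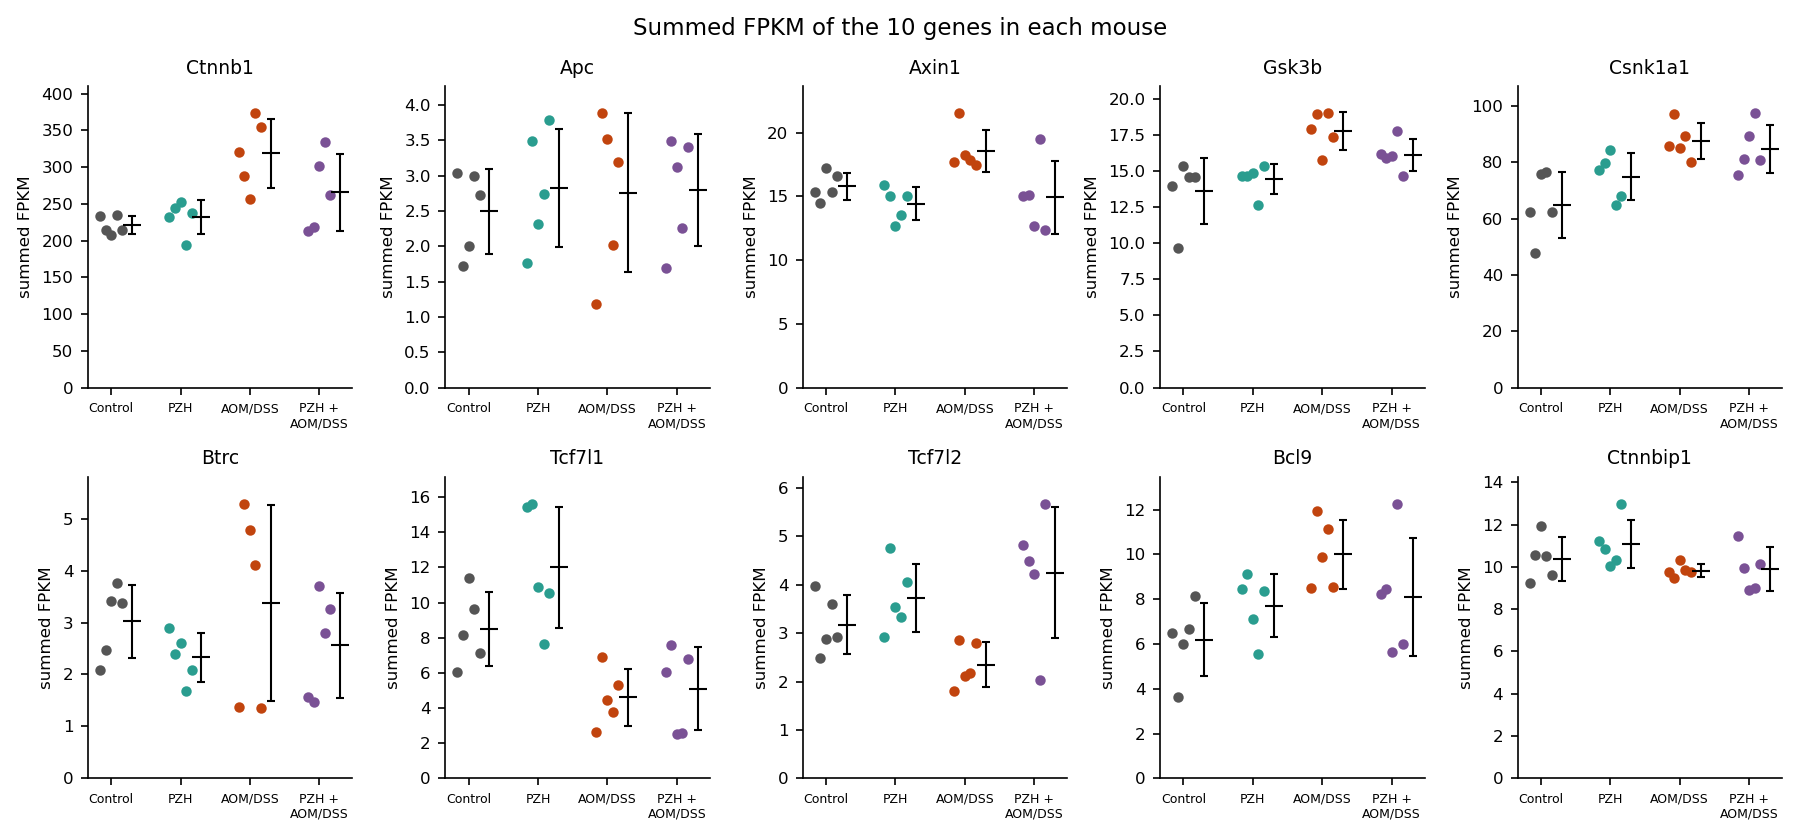
Summed FPKM of each gene (y axis, linear from 0) in the mice of all 4 groups; each point is 1 mouse and the bar beside it is mean ± SD (n = 5). All AOM/DSS mice lie above all Control mice for Ctnnb1, Axin1, Gsk3b, Csnk1a1 and Bcl9, while Apc and Btrc spread widely within AOM/DSS.

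The sums also differ in how much of them is messenger RNA that encodes the protein. Transcripts annotated as protein coding made up 92.1% of the Ctnnb1 sum on average, 98.8% for Axin1, 97.8% for Gsk3b, 93.8% for Csnk1a1, 100% for Ctnnbip1 and 77.3% for Bcl9. The share was 44.7% for Btrc, 41.2% for Tcf7l2, 24.3% for Apc and 19.8% for Tcf7l1. In Apc the highest transcript was Apc-207, a retained-intron form that made up 60.8% of the sum. In Btrc it was the retained-intron form Btrc-210, with 52.96%. A further Btrc transcript, the protein-coding Btrc-202, was listed at 0 in 13 of 20 mice and reached 3.10 FPKM in AOM/DSS mouse 33. An exact 0 in such a file can be an assignment that failed, so the transcript split of the low genes is uncertain.

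Against Control, AOM/DSS mice had significantly higher Ctnnb1, Csnk1a1 and Bcl9 and significantly lower Tcf7l1 (limma, Benjamini-Hochberg adjusted P under 0.05 over 15812 genes). The other 6 genes did not pass. This is 4 of 10 genes, when 23.6% of all genes tested passed, 16.4% higher and 7.23% lower, so the count for the 10 is not far from the background. At an unadjusted P under 0.05, 5 were higher and 1 was lower, against 36% of all genes, 24.2% higher and 11.8% lower. For 5 of the 10 genes every AOM/DSS mouse was above every Control mouse, against 13% of all genes, and 18.4% of all genes did not overlap in either direction. The median log2 fold change was 0.14 over the 10 genes and 0.09 over all genes. When libraries were scaled to the median of their gene ratios, the split of all called genes moved from 2596 higher and 1143 lower to 1918 higher and 1604 lower, and 2 of the 10 genes passed, Ctnnb1 and Tcf7l1.

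Ctnnb1, which encodes β-catenin itself, measured 234, 214, 208, 235 and 214 FPKM in Control mice 17, 37, 41, 48 and 50. In AOM/DSS mice 23, 30, 33, 44 and 52 it measured 320.5, 288, 257, 373 and 355 FPKM. The lowest AOM/DSS mouse was above the highest Control mouse. The fitted log2 fold change was 0.52 ± 0.11 (SE), a 1.43-fold difference on the FPKM + 1 scale, with a limma adjusted P of 0.00819. Ctnnb1 stayed significant in all 10 fits that left out 1 mouse, with log2 fold changes of 0.46 to 0.59. Without Control mice 17 and 50 it was 0.53 with an adjusted P of 0.0334.

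Within Ctnnb1, the coding transcript Ctnnb1-201 accounted for 89.3% of the sum, and it was the only one of 27 tested transcripts of the 10 genes with an adjusted P under 0.05 (log2 fold change 0.44 ± 0.11, limma adjusted P = 0.0306 over 40464 transcripts, of which 6.94% passed). At an unadjusted P under 0.05 there were 10 of the 27, against 20.7% of all transcripts. Ctnnb1-209, the transcript with the start of intron 10, measured 1.21 to 17.5 FPKM in Control and 9.66 to 35.9 FPKM in AOM/DSS mice. Its log2 fold change was 1.42 ± 0.59, with an unadjusted P of 0.0368 and a limma adjusted P of 0.204. Ctnnb1-206, with the end of the same intron, measured 2.65 to 7.31 FPKM in Control and 5.30 to 15.6 FPKM in AOM/DSS mice, and its log2 fold change was 1.12 ± 0.31 (unadjusted P = 0.00413, limma adjusted P = 0.0558). Neither passed after adjustment, and the groups overlapped for both.

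Together the intron transcripts made up 5.79 ± 3.62% of the Ctnnb1 sum in Control mice and 9.77 ± 3.71% of it under AOM/DSS (SD, n = 5 each). The shares were 3.23 ± 1.08% for the PZH group and 6.48 ± 3.83% when PZH was combined with AOM/DSS. These shares were not tested. The highest were 13.8% and 13.05% in AOM/DSS mice 44 and 52, which were also the mice with most Ctnnb1. Next came PZH + AOM/DSS mouse 2 at 11.8%, with a Ctnnb1 sum of only 213 FPKM, and Control mouse 17 reached 10.6%. The rest of the intron between the covered ends has no annotated transcript in these files, so whole-intron retention was not measured here. The labels name rRNA depletion, and the methods name rRNA removal followed by a poly(A) isolation step. The part of unspliced RNA in these values was not tested. Ulk4, a gene on the opposite strand that shares 284 exon bases with Ctnnb1-209 and none with Ctnnb1-206, stood at a mean of 0.345 FPKM.

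**Figure D2:**
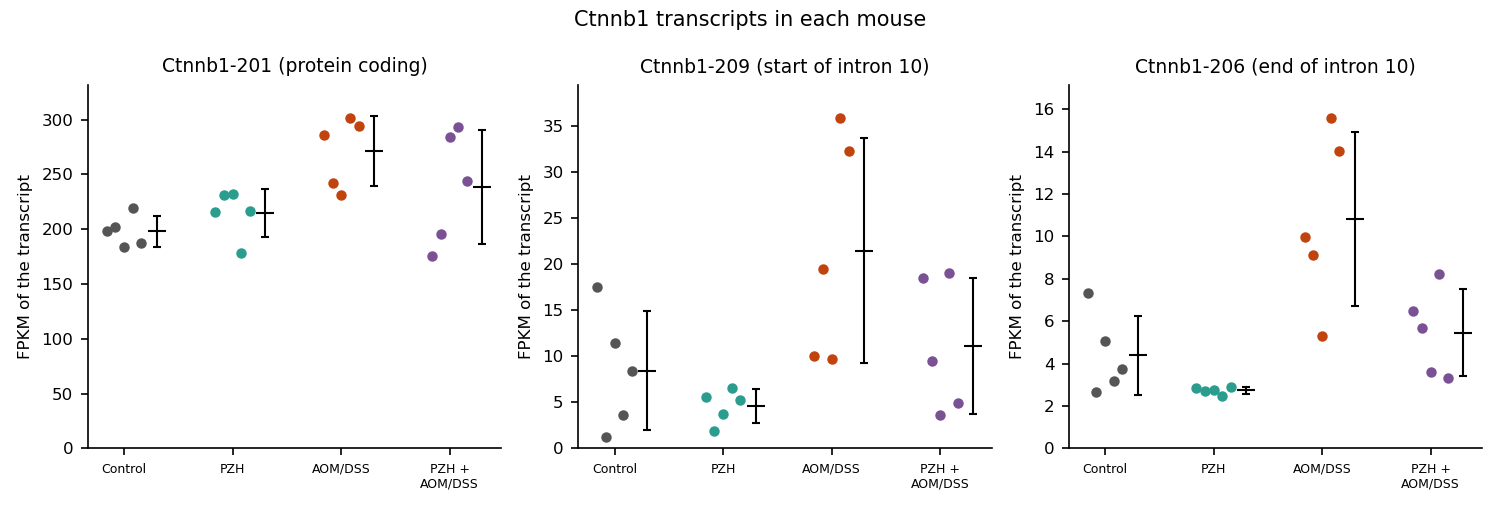
FPKM of the coding transcript Ctnnb1-201 and of Ctnnb1-209 and Ctnnb1-206, which hold the start and the end of intron 10 (y axes linear from 0), in each mouse of the 4 groups with mean ± SD (n = 5). AOM/DSS mice 44 and 52 are highest for both intron transcripts, and the PZH mice lie between 2.49 and 2.88 FPKM for Ctnnb1-206.

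Of the scaffold proteins, Axin1 measured 14.5 to 17.2 FPKM in Control mice and 17.7, 21.5, 18.3, 17.8 and 17.5 FPKM in AOM/DSS mice, so the groups just missed each other. This gave a log2 fold change of 0.22 ± 0.09 with an unadjusted P of 0.0403, which did not pass after adjustment (limma adjusted P = 0.119). Without Control mice 17 and 50 it was 0.23 (adjusted P = 0.208). Apc measured 1.72 to 3.03 FPKM in Control and 1.18 to 3.88 FPKM in AOM/DSS mice. Its log2 fold change was 0.06, with a 95% confidence interval of -0.45 to 0.57, so a rise or fall within that interval was not excluded.

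Of the kinases, Csnk1a1 measured 62.3, 47.8, 75.8, 76.4 and 62.4 FPKM in Control mice and 85.9, 97.2, 85.1, 89.5 and 80.2 FPKM in AOM/DSS mice. No AOM/DSS mouse was as low as any Control mouse. This was a log2 fold change of 0.44 ± 0.13 (limma adjusted P = 0.0312). The call is marginal, since it was lost in 6 of 10 fits that left out 1 mouse (Control mouse 17 or 50, or AOM/DSS mouse 23, 30, 33 or 44), with log2 fold changes of 0.40 to 0.45 and adjusted P of 0.0550 to 0.0691. It was also lost when Control mice 17 and 50 were left out together (0.42, adjusted P = 0.115) and under median-of-ratios scaling (0.33, adjusted P = 0.0860). It was lost as well with limma voom on estimated fragments (0.27, adjusted P = 0.216), over its highest transcript (0.36, adjusted P = 0.299) and with no filter (0.44, adjusted P = 0.0512). Its transcripts Csnk1a1-204 and Csnk1a1-210 had unadjusted P of 0.165 and 0.00690, with log2 fold changes of 0.36 and 0.77. Neither passed after adjustment.

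Gsk3b measured 13.96, 9.63, 15.4, 14.6 and 14.6 FPKM in Control mice and 17.9, 18.9, 15.8, 19.0 and 17.4 FPKM in AOM/DSS mice. The groups did not overlap, and the log2 fold change was 0.37 ± 0.13, with a limma adjusted P of 0.0585 that just missed the threshold. In the fit over all 20 mice it was 0.0142, and without Control mice 17 and 50 it was 0.0988 (0.43). Btrc, which recognises the phosphorylated β-catenin, measured 2.09 to 3.77 FPKM in Control mice. In AOM/DSS mice it fell into a low pair, 1.37 and 1.35 FPKM in mice 23 and 52, and 5.28, 4.79 and 4.11 FPKM in mice 30, 33 and 44. The coding transcript Btrc-202 was listed at 0 in mice 23 and 52. In mice 30, 33 and 44 it was listed at 2.96, 3.10 and 1.65 FPKM. The part of these listed zeros in the split was not tested. The fitted log2 fold change of Btrc was 0.01 (95% confidence interval -0.66 to 0.69).

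Among the nuclear partners, the coactivator gene Bcl9 measured 6.50, 3.62, 6.01, 6.68 and 8.14 FPKM in Control mice and 8.48, 11.9, 9.90, 11.1 and 8.54 FPKM in AOM/DSS mice. Again the lowest AOM/DSS mouse was above the highest Control mouse. The fitted log2 fold change was 0.64 ± 0.18, or 1.55-fold (limma adjusted P = 0.0292). The call was lost in 4 of 10 fits that left out 1 mouse (Control mouse 41, or AOM/DSS mouse 30, 33 or 44), with adjusted P of 0.0518 to 0.0716, and under median-of-ratios scaling (0.53, adjusted P = 0.0522). Without Control mice 17 and 50 it was 0.80 with an adjusted P of 0.0275.

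Tcf7l1, a TCF factor known mainly as a repressor of Wnt targets, measured 6.07, 8.14, 11.4, 9.63 and 7.11 FPKM in Control mice and 2.62, 6.92, 4.43, 3.76 and 5.32 FPKM in AOM/DSS mice. Only AOM/DSS mouse 30 reached into the Control range. The log2 fold change was -0.78 ± 0.22, and the limma adjusted P was 0.0294. The call was lost in 5 of 10 fits that left out 1 mouse (Control mouse 41 or 48, or AOM/DSS mouse 23, 33 or 44), with adjusted P of 0.0554 to 0.0714, and held without Control mice 17 and 50 (-0.97, adjusted P = 0.0298). It was also lost with no filter (-0.78, limma adjusted P = 0.0517). The noncoding transcript Tcf7l1-203, which made up 78.9% of the sum, had a log2 fold change of -0.93 ± 0.28 that did not pass over all transcripts (unadjusted P = 0.00710, limma adjusted P = 0.0791). Over the protein-coding transcripts alone, the values were 0.764 to 2.24 FPKM in Control and 0.773 to 1.95 FPKM in AOM/DSS mice, with a log2 fold change of -0.04 and an adjusted P of 0.908.

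Tcf7l1-203 shares 95 of its 518 exon bases with Gm15401, an antisense gene on the plus strand at chr6:72629288-72637717. Gm15401 stood at 7.82, 31.3, 38.2, 33.001 and 5.73 FPKM in Control mice 17, 37, 41, 48 and 50, and at 2.12 to 4.79 FPKM in AOM/DSS mice. Its log2 fold change was -2.08 ± 0.50 (limma adjusted P = 0.0123). The lowest Control mice for both Gm15401 and Tcf7l1-203 were mice 17 and 50, the pair with squamous markers. No source used here states that strand was used in the counting, so reads of Gm15401 and Tcf7l1 in the shared bases cannot be told apart, and the share of Gm15401 in the Tcf7l1 value was not tested.

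**Figure D3:**
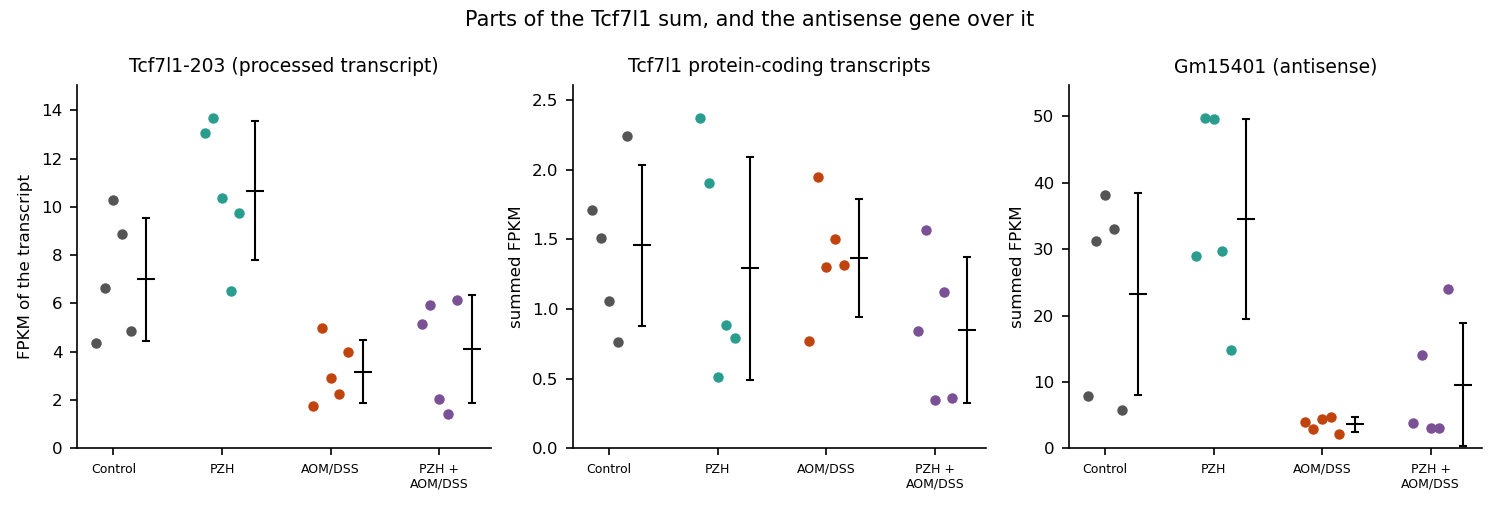
FPKM of the noncoding transcript Tcf7l1-203, of the summed protein-coding Tcf7l1 transcripts and of the antisense gene Gm15401 (y axes linear from 0), in each mouse with mean ± SD (n = 5). Tcf7l1-203 and Gm15401 are low in AOM/DSS mice, while the coding transcripts span the same range in Control (0.764 to 2.24) and AOM/DSS (0.773 to 1.95) mice.

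Tcf7l2, the main TCF factor of the intestinal epithelium, measured 2.49 to 3.98 FPKM in Control and 1.81 to 2.87 FPKM in AOM/DSS mice. Its log2 fold change was -0.32 ± 0.14, with an unadjusted P of 0.0508 and a limma adjusted P of 0.140. Ctnnbip1, the inhibitor of the β-catenin and TCF complex, was the steadiest of the 10 genes in AOM/DSS mice, at 9.45 to 10.3 FPKM, against 9.22 to 11.9 FPKM in Control mice. Its log2 fold change was -0.07, with a 95% confidence interval of -0.28 to 0.15.

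The 10 genes were set beside the rest of the pathway. Of 24 tested further genes of the destruction complex and of β-catenin turnover, 5 were significantly higher in AOM/DSS than in Control and none was lower, against 16.4% and 7.23% of all genes, with a median log2 fold change of 0.21 against 0.09. The count was thus near the background. It was 5 as well without Control mice 17 and 50, where 1881 of all 15381 genes were higher. Axin2, a scaffold gene that is itself a Wnt target, rose from 8.08 ± 2.77 to 38.3 ± 12.1 FPKM (SD, n = 5; log2 fold change 2.12). The kinase gene Csnk1e rose from 6.32 ± 1.31 to 14.6 ± 3.65 FPKM (1.08), Tnks, whose product tankyrase promotes axin turnover, from 7.74 ± 1.09 to 12.8 ± 1.76 FPKM (0.66), and the ligase subunit gene Skp1a from 145 ± 20.3 to 211 ± 30.7 FPKM (0.54). The rise of Axin2 on the log2 scale was thus larger than that of Axin1, which did not pass. The fifth was Siah1b, a ubiquitin ligase gene.

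Of 27 tested other nuclear partners, 9 were higher and 1, Aes, a member of the TLE corepressor family, was lower, against the same 16.4% and 7.23%, with a median log2 fold change of 0.18. Without Control mice 17 and 50, 5 were higher and 1 was lower, against 1881 higher and 858 lower of all 15381 genes. Lef1, a TCF/LEF factor and Wnt target, rose from 0.401 ± 0.332 to 5.33 ± 2.45 FPKM, and Sox17 from 1.29 ± 0.655 to 10.1 ± 7.25 FPKM. Nlk, a kinase gene that acts on TCF/LEF factors, rose from 4.29 ± 0.789 to 8.72 ± 1.35 FPKM, and the chromatin remodeller gene Smarca4 from 17.9 ± 2.34 to 31.0 ± 3.33 FPKM. Among 11 adherens junction genes, 2 were higher, Nectin4 (log2 fold change 1.64) and Cdh3, and 1 was lower, Cdh2, which is again near the background. Cdh1, the junction partner of β-catenin, had a log2 fold change of 0.05 and a limma adjusted P of 0.796.

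The Wnt target genes stand downstream of the 10 genes. Of 24 tested, 18 were higher in AOM/DSS than in Control and none was lower, against 16.4% higher and 7.23% lower of all genes. The median log2 fold change was 1.19, against 0.09 over all genes. Without Control mice 17 and 50, 15 were higher and none was lower, against 1881 higher and 858 lower of all 15381 genes. Mmp7, a matrix protease gene, was listed at 0 in all Control and PZH mice and measured 372 ± 173 FPKM in AOM/DSS mice. Wif1, a secreted Wnt inhibitor gene, rose from 0.673 ± 0.177 to 104 ± 35.3 FPKM. The inhibitor genes Apcdd1 and Notum reached 53.3 ± 22.8 and 20.04 ± 7.05 FPKM in AOM/DSS mice, from 0.793 ± 0.491 and 0.00729 ± 0.0163 FPKM. The list was made with earlier results of these data known, so its count is no independent evidence of its direction.

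When PZH was added to AOM/DSS, no gene of the 10 differed from AOM/DSS alone with an adjusted P under 0.05 (limma over 15888 genes, of which 0.00629% passed, the single gene Eef1a1). At an unadjusted P under 0.05, Tcf7l2 was higher and Axin1 was lower, 2 of 10 genes against 11.7% of all genes, 3.51% higher and 8.21% lower. No gene of the 10 separated the groups, against 1.08% of all genes. Limma voom on estimated fragments also called 0 of 10, with 2 at an unadjusted P under 0.05. In Ctnnb1, PZH + AOM/DSS mice 2, 13, 15, 35 and 36 measured 213, 218, 301, 335 and 262 FPKM. Mice 2 and 13 lay within the Control range, and mice 15, 35 and 36 within the AOM/DSS range. The log2 fold change against AOM/DSS was -0.27 ± 0.16 (95% confidence interval -0.62 to 0.07, limma adjusted P = 0.520).

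Tcf7l2 measured 4.83, 4.50, 4.23, 2.03 and 5.67 FPKM in the PZH + AOM/DSS mice, against 1.81, 2.87, 2.11, 2.18 and 2.79 FPKM in the AOM/DSS mice. The mice other than mouse 35 lay above every AOM/DSS mouse. With all 5 mice the log2 fold change was 0.61 ± 0.21, with an unadjusted P of 0.0143 and a limma adjusted P of 0.356. Without mouse 35 it was 0.80, with an adjusted P of 0.0150, in a fit in which 5.17% of genes passed against 0.00629% with all mice. Tcf7l2 was the only one of the 10 to pass there, while Axin1 reached 0.0641, Bcl9 0.137 and Ctnnb1 0.193 (log2 fold changes -0.41, -0.45 and -0.36). Over its protein-coding transcripts alone the log2 fold change was 0.77 (adjusted P = 0.385), and over its highest transcript, a retained-intron form, it was 0.18.

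Axin1 measured 15.02, 15.1, 12.7, 19.5 and 12.3 FPKM in the PZH + AOM/DSS mice, and mouse 35 was again the one that lay within the AOM/DSS range. The log2 fold change was -0.31 ± 0.13 (unadjusted P = 0.0382, limma adjusted P = 0.403). Bcl9 measured 5.64 to 12.2 FPKM, highest in mouse 35, with a log2 fold change of -0.31 ± 0.19 (adjusted P = 0.552). Csnk1a1 and Gsk3b stood at 84.8 ± 8.63 and 16.1 ± 1.13 FPKM, with log2 fold changes of -0.05 and -0.14. The remaining genes had log2 fold changes of 0.07 for Tcf7l1 (95% confidence interval -0.61 to 0.75), 0.05 for Apc, 0.01 for Ctnnbip1 and -0.22 for Btrc. Of the Wnt target list, 12 of 24 were lower at an unadjusted P under 0.05, against 8.21% of all genes, and none after adjustment. Without mouse 35, 19 were lower at an unadjusted P under 0.05 and 10 after adjustment. Of all 15639 genes in that fit, 2329 and 689 were lower at these thresholds.

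In the same comparison 3 of 27 tested transcripts of the 10 genes had an unadjusted P under 0.05, namely Ctnnb1-206, the coding Tcf7l1-201 (log2 fold change -0.48, unadjusted P = 0.0240) and the coding Axin1-201 (-0.37, unadjusted P = 0.0436). Among all transcripts, 2687 to 5398 were under that threshold when 1 mouse was left out. With all 10 mice, 41170 transcripts were tested. The range comes from fits with fewer mice, so the 3 were not set against a share from the same fit. No member transcript passed after adjustment, against 0.0219% of all transcripts. Ctnnb1-206 averaged 10.8 ± 4.10 FPKM in AOM/DSS and 5.46 ± 2.04 FPKM in PZH + AOM/DSS mice (log2 fold change -0.85 ± 0.31, unadjusted P = 0.0186, limma adjusted P = 0.527). For Ctnnb1-209 the log2 fold change was -0.95 ± 0.52 (unadjusted P = 0.0956, limma adjusted P = 0.640), and for the coding transcript Ctnnb1-201 it was -0.21 ± 0.16. These comparisons share the AOM/DSS mice with the comparison against Control above.

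**Figure D4:**
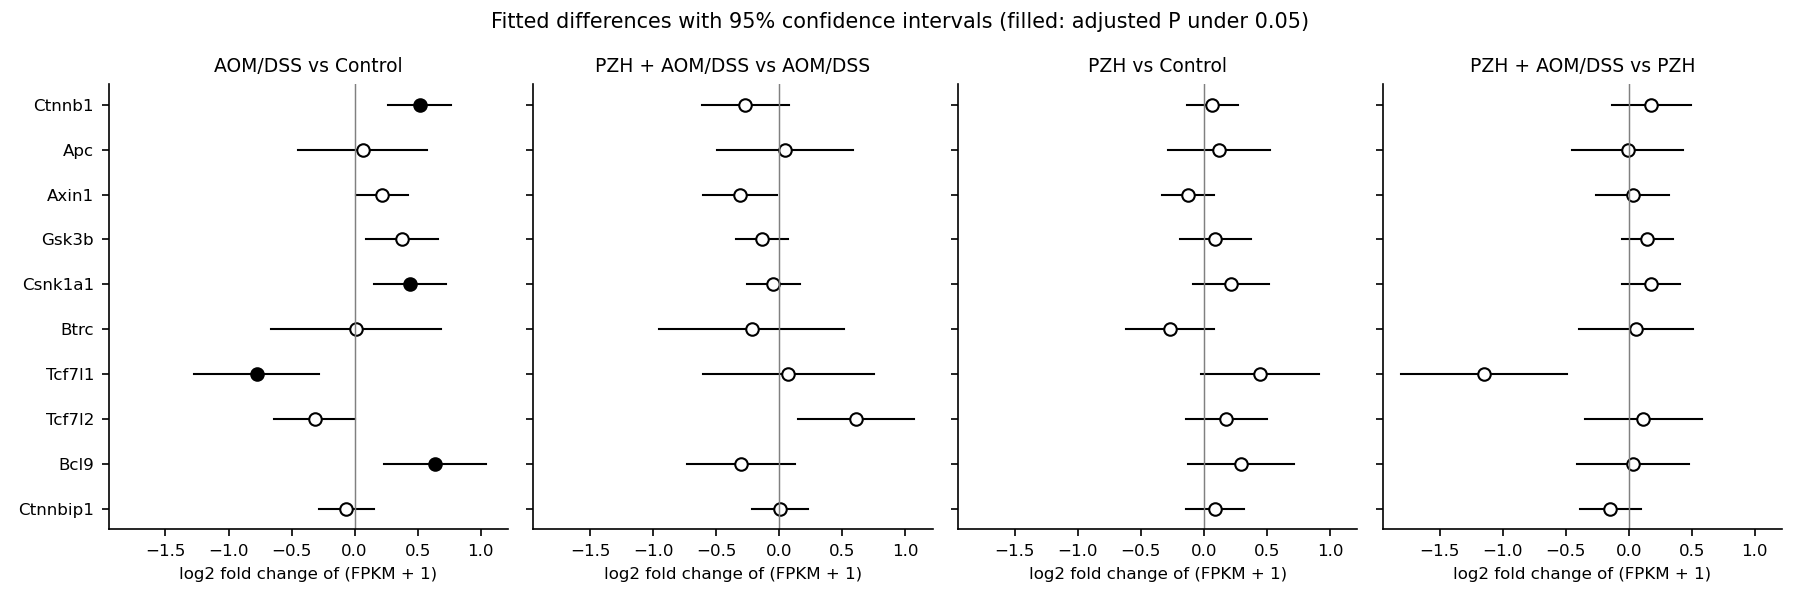
Fitted log2 fold change of FPKM + 1 for each gene (x axis) with its 95% confidence interval in 4 comparisons; filled points have an adjusted P under 0.05. Filled points appear only for Ctnnb1, Csnk1a1, Bcl9 and Tcf7l1 in AOM/DSS vs Control.

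Between PZH and Control mice, no gene of the 10 passed, at either an adjusted or an unadjusted P under 0.05 (limma over 15506 genes, of which 0.00645% and 8.84% passed), and none separated the groups, against 1.81% of all genes. Ctnnb1 measured 194 to 253 FPKM in PZH mice, with a log2 fold change of 0.07 (95% confidence interval -0.13 to 0.27). The widest difference was that of Tcf7l1, which measured 15.4, 15.6, 10.9, 7.62 and 10.5 FPKM in PZH mice 8, 14, 27, 46 and 53, with a log2 fold change of 0.44 ± 0.21 (unadjusted P = 0.0599). Its transcript Tcf7l1-203 had a log2 fold change of 0.56 ± 0.26, and Gm15401 stood at 14.9 to 49.8 FPKM. The coding transcripts had a log2 fold change of -0.14. The Tcf7l1 value was 0.25 without Control mice 17 and 50 and that of Gm15401 was -0.10. The other 8 genes had log2 fold changes of 0.29 for Bcl9, 0.22 for Csnk1a1, 0.18 for Tcf7l2, 0.12 for Apc, 0.09 for Gsk3b and Ctnnbip1, -0.12 for Axin1 and -0.27 for Btrc. None of the 10 passed without those 2 mice either, and Bcl9 was 0.45 (unadjusted P = 0.0611). Smooth muscle markers were lower in PZH than in Control at an unadjusted P under 0.05 for 5 of 8 genes, and none passed after adjustment.

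Between the groups that both received PZH, PZH + AOM/DSS and PZH, no gene of the 10 passed (limma over 15636 genes, of which 2.42% passed), and 1 did at an unadjusted P under 0.05, against 20.9% of all genes, 7.89% lower. Tcf7l1 measured 6.07, 7.58, 2.55, 2.59 and 6.76 FPKM in PZH + AOM/DSS mice, all below every PZH mouse, which was 1 gene of 10 without overlap against 7.37% of all genes, 2.37% lower. Its log2 fold change was -1.15 ± 0.30, with an unadjusted P of 0.00280 and a limma adjusted P of 0.0695. In the fit over all 20 mice the adjusted P was 0.0185, and without mouse 35 it was 0.114 in the 2-group fit (log2 fold change -0.98). The noncoding Tcf7l1-203 had a log2 fold change of -1.28 ± 0.34 (limma adjusted P = 0.166), and the antisense Gm15401 one of -2.06 ± 0.55 (unadjusted P = 0.00329, limma adjusted P = 0.0741). Over the protein-coding transcripts of Tcf7l1 the value was -0.29 (adjusted P = 0.578). Ctnnb1 had a log2 fold change of 0.18 (95% confidence interval -0.13 to 0.49), against 0.52 between AOM/DSS and Control. For the rest the values were 0.18 for Csnk1a1, 0.15 for Gsk3b, 0.12 for Tcf7l2, 0.06 for Btrc, 0.04 for Bcl9, 0.03 for Axin1, -0.01 for Apc and -0.15 for Ctnnbip1.

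Whether these effects differed was tested as an interaction term in a fit of 20 mice and 16936 genes, of which 0.0118% passed, and no gene of the 10 did. Bcl9 alone had an unadjusted P under 0.05 (interaction -0.60 ± 0.28 on the log2 scale, unadjusted P = 0.0430, limma adjusted P = 0.468), against 10.3% of all genes, 6.92% lower. For Ctnnb1 the interaction was -0.34 (95% confidence interval -0.71 to 0.04, adjusted P = 0.534). The others were 0.43 for Tcf7l2, 0.05 for Btrc, -0.07 for Apc, -0.08 for Ctnnbip1, -0.19 for Axin1, -0.23 for Gsk3b, -0.26 for Csnk1a1 and -0.37 for Tcf7l1. Without mouse 35, where 2.83% of genes passed, still none of the 10 did, and Tcf7l2 came nearest (0.62, adjusted P = 0.107), with Bcl9 at -0.75 (adjusted P = 0.141) and Ctnnb1 at -0.43 (adjusted P = 0.208).

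Within each mouse, log2 ratios of FPKM + 1 were formed for 3 pairs of genes. The log2 ratio of Ctnnb1 to Cdh1 was 0.15 ± 0.20 in AOM/DSS and -0.32 ± 0.21 in Control mice (SD, n = 5), a difference of 0.47 (exact two-sided permutation test, P = 0.0238, Benjamini-Hochberg adjusted P = 0.0952 over 12 tests). The log2 ratio of Ctnnb1 to Apc differed by 0.45 between the same groups (exact permutation P = 0.175, adjusted P = 0.419). The log2 ratio of Tcf7l2 to Tcf7l1 was -0.17 ± 0.44 in PZH + AOM/DSS against -0.70 ± 0.25 in AOM/DSS and -1.43 ± 0.41 in PZH mice, with exact permutation P of 0.0238 and 0.00794 and adjusted P of 0.0952 for both. The smallest P that 5 against 5 mice allow is 0.00794, and none of the 12 ratios passed after adjustment. The Tcf7l1 part of that ratio is mostly the noncoding transcript described above.

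Genes whose order of mice was among the most like that of each member were found over all 20 mice and 16936 genes by the mean difference of ranks. For Ctnnb1 they were Lrrc4 (a mean difference of 1.7 ranks), Map3k15 and Slc7a2 (1.9 each). For Bcl9 they were Myh9 (1.7) and Pdgfb (2.2), and for Gsk3b Wasf1, Nup188 (1.6 each) and Prodh (1.7). For Csnk1a1 the nearest were Sbno1 (1.8), Slf2 and Fnbp1l (1.9 each), and for Axin1 Tcea2 (1.9), Mycn (2.0) and Bcam (2.1). For Tcf7l1 they were Gm16559 (1.6) and Acss1 (1.7), and for Tcf7l2 Slc1a3 (2.3), Arhgef11 (2.5) and Cpeb3 (2.6). Apc, Ctnnbip1 and Btrc had looser neighbours, led by Kctd12b (3.0), Ace (2.7) and Tmed8 (2.6). No gene of the 10 was among the 3 nearest of another. All mice and libraries are shared by these rankings, so they are descriptions only.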

How the data were processed

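The deposited values are FPKM per transcript, which the authors computed with StringTie after quality assessment with FastQC, filtering with NGSQC and HISAT2 alignment to mm10. The files hold no counts and name no strand setting, and the submitters' processing notes list limma. The 96032 transcripts found in GENCODE M21 were summed to 32991 genes; 150 Ensembl transcripts missing from it and 22252 assembled transcripts, with 12.1% to 14.8% of the summed FPKM, were left out. Depth was estimated from the spacing of FPKM multiplied by length, and it limits the precision of low genes. Log2(FPKM + 1) values were compared with limma 3.58.1 (R 4.3.3, intensity trend, no covariates) in the 10 mice of each comparison, or 20 for the interaction. Genes needed 0.5 FPKM in at least 5 of these mice, and P was adjusted over all genes (Benjamini-Hochberg) with a threshold of 0.05. Ratios used exact permutation tests (scipy 1.17.1). The limma script was tested on simulated data.

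All 10 members are named in every comparison. From each pathway list, up to 4 genes with the largest change among those significant in AOM/DSS against Control with at least 1 FPKM are named; Siah1b, Aes, Cdh3, Cdh2, Cdh1, Gm15401, Ulk4 and Eef1a1 were added after their values were seen. The members and lists were chosen with earlier results of these data known. Mouse numbers differ between groups, and P sets a difference between groups against the spread between these mice. Alternatives were another scaling, pseudocount, filters, weights, limma voom on estimated fragments (median-of-ratios factors), all 20 mice, the highest transcript and each mouse left out; coding transcripts alone, and Control mice 17 and 50 left out, were added after seeing the data. Some genes near a member in the order of mice are not reported here.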

Additional observations from a re-analysis of the deposited data

Results flagged for a closer look

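Within the groups of 5 mice, 3 of 40 gene-by-group values had 1 mouse far from the other 4 by Dixon's criterion, when chance gives about 2. Axin1 was 21.5 FPKM in AOM/DSS mouse 30, against 17.5 to 18.3 FPKM in the other 4. Gsk3b was 9.63 FPKM in Control mouse 37, against 13.96 to 15.4 FPKM in the other 4, and 12.6 FPKM in PZH mouse 46, against 14.6 to 15.3 FPKM. No member had an interaction of PZH and AOM/DSS that passed, and in none did the PZH effect separate the mice in opposite directions with and without AOM/DSS.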

How the results depend on the processing

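No paired analysis was possible because the groups share no replicate number. The main limits are depth, with few fragments behind Apc, Tcf7l1, Tcf7l2 and Btrc, and PZH + AOM/DSS mouse 35. Over the alternatives that left out no single mouse, 419 member fold changes kept their direction and their side of the threshold, 31 changed sign (none of a called fold change), 8 lost a call and 2 gained one. Ctnnb1 in AOM/DSS against Control kept its call in all of these and had log2 fold changes of 0.35 (voom on estimated fragments) to 0.53. The cause was not tested for any change given here, except that fits without filter adjust over more genes.

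The number of the 10 genes called in AOM/DSS against Control was 4 and moved to 2 under median-of-ratios scaling and 2 with no filter. In PZH + AOM/DSS against PZH it moved from 0 to 1 in the fit over all 20 mice. Of all genes in PZH + AOM/DSS against AOM/DSS, 1 was called, and 0 with no filter (2987 at an unadjusted P under 0.05), 2 with sample quality weights and 89 in the fit over all 20 mice. In PZH + AOM/DSS against PZH, 378 were called, and 90 with no filter, 239 with voom, 1002 over all 20 mice and 242 over protein-coding transcripts. In PZH against Control, 1 was called, and 0 over all 20 mice (1322 at an unadjusted P under 0.05) and 2 over protein-coding transcripts. For the interaction, 2 were called, and 0 with a pseudocount of 0.1 (1701 unadjusted), 0 with no filter (2538 unadjusted), 0 with voom (1608 unadjusted), 1 with at least 1 FPKM in every mouse and 130 with sample weights. Among transcripts, PZH + AOM/DSS against AOM/DSS had 4 calls with no filter and 2 with at least 1 FPKM in every mouse, PZH against Control 2 with at least 1 FPKM in every mouse, and PZH + AOM/DSS against PZH 23 with no filter.

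Signs changed as follows in AOM/DSS against Control (log2 fold changes). Btrc was -0.074 under median-of-ratios scaling, -0.035 with a pseudocount of 0.1, -0.13 with weights, -0.19 with voom, -0.15 over its highest transcript and -0.060 without Control mice 17 and 50, and Apc was -0.023 under median-of-ratios scaling and -0.056 over its highest transcript. Between the groups given AOM and DSS, Csnk1a1 was 0.042 with voom and 0.0015 over its highest transcript, Btrc 0.026 and 0.13, Tcf7l1 -0.32 with voom and -0.38 over coding transcripts, and Apc -0.16 over coding transcripts. In PZH against Control, Apc was -0.095 and Tcf7l1 -0.14 over coding transcripts, and over the highest transcript Csnk1a1 was -0.026 and Btrc 0.19. In PZH + AOM/DSS against PZH, Axin1 was -0.027 under median-of-ratios scaling, -0.052 with voom and -0.040 over its highest transcript, Btrc -0.032 with weights, -0.072 with voom and -0.20 over its highest transcript, Bcl9 -0.021 under median-of-ratios scaling and -0.027 with weights, and Apc 0.055 with voom and 0.12 over coding transcripts. For the interaction, Csnk1a1 was 0.027 and Btrc -0.051 over the highest transcript.

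Leaving out 1 mouse at a time gave 2516 to 3562 called genes and 1 to 4 called members in AOM/DSS against Control. In PZH + AOM/DSS against AOM/DSS it gave 1 to 808 genes and 0 to 1 members, with 808 only without PZH + AOM/DSS mouse 35. It gave 1 to 2 genes in PZH against Control, 54 to 423 in PZH + AOM/DSS against PZH, and 0 to 476 for the interaction, with 476 without PZH + AOM/DSS mouse 35. For transcripts the ranges in the order of the first 4 comparisons were 1305 to 2424, 2 to 301 (301 without mouse 35), 2 to 30 and 20 to 84. The difference in the log2 ratio of Ctnnb1 to Cdh1 was 0.40 to 0.55 in AOM/DSS against Control and -0.040 to 0.10 in PZH against Control, and that of Ctnnb1 to Apc was -0.16 to 0.027 in PZH against Control. Member fold changes whose sign depended on 1 mouse ranged, for Apc, from -0.046 to 0.24 in AOM/DSS against Control, -0.13 to 0.16 in PZH + AOM/DSS against AOM/DSS, -0.12 to 0.11 in PZH + AOM/DSS against PZH and -0.25 to 0.046 for the interaction. For Btrc they were -0.15 to 0.21 in AOM/DSS against Control, -0.053 to 0.18 in PZH + AOM/DSS against PZH and -0.15 to 0.21 for the interaction. In PZH + AOM/DSS against PZH, Axin1 ranged from -0.063 to 0.092 and Bcl9 from -0.11 to 0.14. Within the groups given AOM and DSS, Tcf7l1 ranged from -0.076 to 0.24 and Ctnnbip1 from -0.044 to 0.038, and Gsk3b ranged from -0.021 to 0.13 in PZH against Control.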
